A study of Mus musculus with 4 samples.

Results

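Expression of 9 genes of the ADAMTS family was followed in single cells of the mouse spine. The genes were chosen by name from the 32286 genes listed in the count matrices, and all 9 were found, namely Adamts4, Adamts5, Adamts1, Adamts9, Adamts15, Adamts2, Adamts6, Adamts12 and Adamtsl2. The cells came from the vertebral column between T11 and L2 and were sorted for tdTomato. This red fluorescent protein is switched on by Cre from the Prss56 locus and marks descendants of cells that once expressed Prss56. The study treated immune, smooth muscle and endothelial cells in these data as contamination and left them out of its analysis. Such cells were kept here, and whether they descend from Prss56-expressing cells was not tested. Control mice were Prss56Cre/+;R26tdTom/tdTom;Nf1+/+ and mutant mice were Prss56Cre/Cre;R26tdTom/tdTom;Nf1fl/fl, at 3 months or at 12–16 months of age, with 1 droplet-based library for each of the 4 conditions. All 4 groups carry Cre and the reporter. Because mutants have Cre on both copies of Prss56 and controls on 1, effects of Cre dose and of Nf1 cannot be told apart. How many mice went into a library is not given in the sources used here. Cells with CD11b, CD31 or CD45 on their surface and dead cells had been discarded in the sort.

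ADAMTS proteins are secreted zinc metalloproteinases that cut matrix proteins outside the cell. Adamts4 and Adamts5 encode the classical aggrecanases, which release aggrecan from cartilage, and Adamts1, Adamts9 and Adamts15 encode proteoglycanases that also cut versican. Adamts2 encodes a procollagen N-proteinase, which trims fibrillar procollagens before fibrils form. Adamts6 and Adamts12 encode further members of the family, of which the former acts on fibrillin microfibrils and the latter is linked to COMP, a cartilage glycoprotein. Adamtsl2 encodes an ADAMTS-like protein that has no protease domain and binds LTBP1 and fibrillin in the matrix, where TGF-beta is stored.

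With the cell filters of the study, 717 cells of the 3-month control library, 484 of the 3-month mutant, 135 of the 12–16-month control and 421 of the 12–16-month mutant library passed, 1757 in all, and 0 cell barcodes were shared between libraries. They held from 2154537 to 9429264 unique molecular identifiers (UMIs, each standing for 1 captured RNA molecule) per library, and the median cell held from 8189 to 12644. Levels are given as CPM, a gene's UMIs divided by all UMIs of the same cells and scaled to 1e+06. Ranges in parentheses are exact 95% intervals that cover counting error only. No condition has a second library, so that differences could not be tested and may be of condition or of library. Nf1 RNA was present under both labels, with 1239 and 1091 UMIs in the control and mutant libraries at 3 months and 317 and 552 at 12–16 months. The deleted part of Nf1 need not lie under the 3′ reads, so that this does not check the labels.

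Cells were grouped by UMIs of a few genes. Cells with a Sox9 UMI and at least 3 UMIs of Zfp804b and Dab1 together are called Zfp804b/Dab1 cartilage cells (30, 142, 11 and 38 cells, where values in a row of 4 always give both libraries of 3 months first and, within an age, the control before the mutant). These cells had all 7 chondrocyte markers in the majority of cells but only 1 of 3 markers fixed for the cartilage endplate, Runx2, and are therefore not given that name. The remaining cells with Sox9 and at least 3 Acan UMIs are called other cartilage cells (532, 235, 78 and 219 cells), and 5 of the 7 chondrocyte markers were in the majority of them. Cells with at most 2 Acan UMIs and at least 3 UMIs of Slit2, Tnc and Postn together are called osteoblast-like (37, 15, 21 and 63 cells). All 7 osteoblast markers were in the majority of these cells, as were 3 of 4 markers of marrow stroma. Of the 136 cells, 85 also had at least 10 UMIs of Cxcl12, the rule used for marrow stroma. Among all 89 cells that met this rule with at most 2 Acan UMIs, 5 of the 7 osteoblast markers were in the majority. The name osteoblast-like thus also covers cells with markers of marrow stroma. Of the members, only Adamts2 is given below divided by this rule. For the others, including Adamts9 and Adamts5, the part of the stroma-like cells in the osteoblast-like levels is therefore not shown. Cells with at least 3 UMIs of Rgs5 and Myh11 together are called mural-like (9, 17, 2 and 25 cells), with all 6 mural markers in the majority of cells. Cells that met more than 1 of these definitions (6 cells) were left out of them, and 277 cells met none. Since the definitions use UMI thresholds, a shallow cell meets them less easily.

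**Figure D1:**
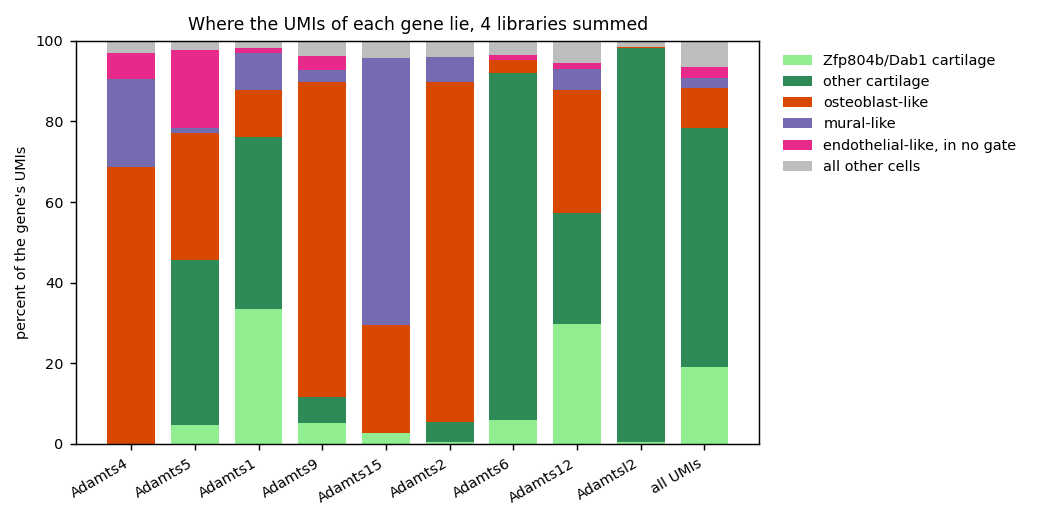
Share of each gene's UMIs (vertical axis, percent, 4 libraries summed) that lay in each group of cells, with the share of all UMIs as the last bar. Most UMIs of Adamtsl2 and Adamts6 lay in other cartilage (97.6% and 86.1%), and most of Adamts2 and Adamts9 in osteoblast-like cells (84.2% and 78.1%). Mural-like cells held 66.2% of the Adamts15 UMIs, but fewer than osteoblast-like cells in both control libraries.

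The 9 genes differed in the cells that held them. Other cartilage cells held 59.3% of all UMIs, but 97.6% of the Adamtsl2 UMIs and 86.1% of the Adamts6 UMIs. Osteoblast-like cells held 9.92% of all UMIs, but 84.2% of the Adamts2 UMIs, 78.1% of the Adamts9 UMIs and 68.8% of the 32 Adamts4 UMIs. Mural-like cells held 2.34% of all UMIs and 66.2% of the 71 Adamts15 UMIs. Within the control libraries alone, they held 41.2% of 17 Adamts15 UMIs at 3 months and 33.3% of 6 at 12–16 months. Osteoblast-like cells held 47.1% and 66.7% of these. Adamts5, Adamts1 and Adamts12 were spread over several groups. Between osteoblast-like and other cartilage cells, 7 members had the required 50 UMIs, summed over both groups and all libraries. Of these, Adamts9, Adamts2 and Adamts12 were at least 1.5-fold higher in osteoblast-like cells in all 4 libraries, as were 11.7% of all 11905 genes with that many UMIs. Adamts6 and Adamtsl2 were counted as lower in all 4 libraries, as were 13.2% of all genes, where 0 UMIs against any positive level counts as lower. For Adamtsl2 a fold of 1.5 was shown in 3 libraries only, since the 3-month mutant had 0 UMIs in 15 osteoblast-like cells. With this 0 set to 3 counts the level was 1.06-fold lower, which leaves out the counting error of other cartilage. The exact interval of the 0 reached 21.2 CPM, above the Adamtsl2 level in other cartilage of the same library. A lower level was therefore not shown in the 3-month mutant. Between Zfp804b/Dab1 cartilage and other cartilage, 0 of 7 members were higher in all 4 libraries (8.92% of all genes were), and Adamts5, Adamts6 and Adamtsl2 were lower (7.9% of all genes were).

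**Figure D2:**
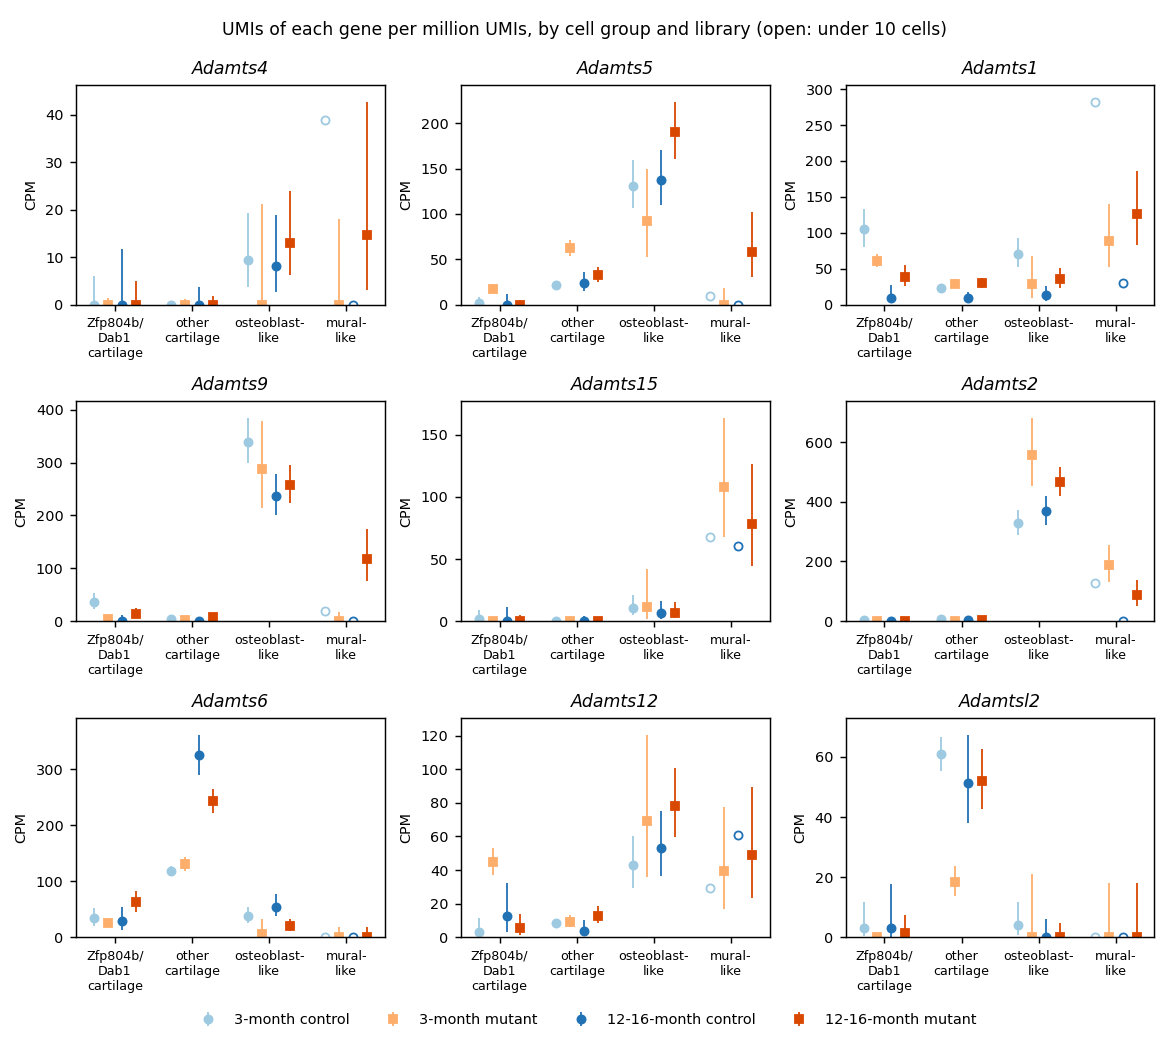
CPM (vertical axis, from 0) of each gene in 4 groups of cells (horizontal axis) and 4 libraries (colors and symbols). Bars are 95% Poisson intervals, and open symbols mark groups of under 10 cells, drawn with no interval. The plot shows Adamts9 and Adamts2 highest in osteoblast-like cells, Adamts6 and Adamtsl2 in other cartilage and Adamts15 in mural-like cells.

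The classical aggrecanases behaved differently from each other. Adamts4 (ENSMUSG00000006403, chr1:171250421-171260637, plus strand, GRCm38) was at the edge of detection, with 12, 1, 6 and 13 UMIs in the 4 libraries. In other cartilage and in Zfp804b/Dab1 cartilage it had 0 UMIs in every library, although other cartilage of the 3-month control alone held 7640623 UMIs. In osteoblast-like cells its level was 9.36 CPM, 0 CPM, 8.08 CPM and 13.0 CPM, and the 0 of the 3-month mutant allowed up to 21.2 CPM.

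Adamts5 (ENSMUSG00000022894, chr16:85856173-85901828, minus strand) had 321, 344, 117 and 307 UMIs, of which 41.0% lay in other cartilage, 31.7% in osteoblast-like cells and 19.2% in cells outside the 4 groups with at least 3 UMIs of Cdh5 and Pecam1 together, the latter being 2.70% of all UMIs. Its level in osteoblast-like cells was 131 CPM (106–159.7), 92.1 CPM (52.6–149.5), 137 CPM (109.8–169.9) and 190.1 CPM (160.5–224). In other cartilage it was 21.3 CPM (18.2–24.9), 62.1 CPM (53.5–71.5), 24.1 CPM (15.5–35.9) and 32.9 CPM (25.6–41.6), so that the 3-month mutant library stood apart from the other 3. The ratio of osteoblast-like to other cartilage cells was 6.14, 1.48, 5.69 and 5.78, with an interval of 0.831–2.47 in the 3-month mutant.

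Adamts5 was also found in cells with endothelial markers, a class against which the cells had been sorted by CD31. The study left endothelial cells out of its analysis as contamination. Of the cells with at least 3 UMIs of Cdh5 and Pecam1, 19 had Cdh5 and no UMI of the leukocyte gene Ptprc, 3 in the 3-month control, 7 in the 3-month mutant, 0 in the 12–16-month control and 9 in the 12–16-month mutant library. This stricter group was formed after the values were seen. It held 56, 83 and 70 UMIs of Adamts5 in the 3 libraries with such cells, or 2461 CPM, 1040 CPM and 1335 CPM, and 100%, 85.7% and 100% of its cells had a UMI of the gene. By contrast, Adamts5 was found in 0 of 13, 0 of 42, 1 of 2 and 1 of 30 cells with a Ptprc UMI and at most 2 Acan UMIs, whose median depth was 1242 UMIs in the 3-month control and 12018.5 in the 3-month mutant. The 1 cell of the 12–16-month control held 18 UMIs. The level of Adamts5 was thus higher in the few endothelial-like cells than in any of the 4 main groups of the same library.

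Adamts1 (ENSMUSG00000022893, chr16:85793827-85803113, minus strand) lies beside Adamts5, at a distance of 53059 bases with 0 protein-coding genes between them, but its cells were different. Of its 329, 287, 28 and 153 UMIs, 42.5% lay in other cartilage, 33.5% in Zfp804b/Dab1 cartilage, 11.7% in osteoblast-like and 9.28% in mural-like cells. In mural-like cells, 29, 18, 1 and 26 UMIs were found, or 282 CPM (189–405), 88.4 CPM (52.4–140), 30.4 CPM (0.770–169.5) and 127 CPM (82.8–186), where the control libraries had 9 and 2 such cells. Pericytes and smooth muscle cells of vessels make up the mural class, and the study left smooth muscle cells out of its analysis as contamination.

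Within cartilage, Adamts1 followed the markers of hypertrophic chondrocytes, the enlarged cells that precede mineralization and express Col10a1 and Panx3. In Zfp804b/Dab1 cartilage of the 3-month control, all 65 UMIs lay in the 7 cells with a UMI of Col10a1 or Panx3 (273.8 CPM, 211–349) and 0 in the other 23 cells, so that the level was at least 34.9-fold higher with the floor of 3 counts. In the 3-month mutant it was 167 CPM in 38 such cells and 8.09 CPM in the other 104, a ratio of 20.6 (12.1–37.8). In the 12–16-month mutant it was 79.3 CPM in 11 cells and 23.8 CPM in 27, a ratio of 3.33 (1.5–7.52), and the 12–16-month control had 2 and 1 UMIs. The cell with the most UMIs held 24 of the 65, 38 of the 155 and 8 of the 16 UMIs in these 3 libraries. Other cartilage cells divided in the same way, a division added after the values were seen, gave a like picture. Adamts1 was at 48.0 CPM against 17.3 CPM in the 3-month control, a ratio of 2.77 (2.03–3.77), and at 73.96 CPM against 12.1 CPM in the 3-month mutant, a ratio of 6.09 (3.82–9.96). It was at 18.8 CPM against 5.50 CPM in the 12–16-month control, a ratio of 3.41 on 5 and 4 UMIs (0.734–17.2), and at 64.9 CPM against 4.86 CPM in the 12–16-month mutant, a ratio of 13.4 (5.77–37.9), where 1 cell held 30 of the 62 UMIs. Other cartilage cells with such a UMI were also deeper, with median depths of 12879, 17492.5, 12456 and 11726.5 UMIs against 12380, 10471, 9287 and 7076 UMIs. In Zfp804b/Dab1 cartilage these depths were 32166, 26357, 27556 and 18286 UMIs against 15608, 16466.5, 27015 and 19715 UMIs. The part of depth in the results of both groups was not tested. The same division of other cartilage gave ratios on both sides of 1 for Adamtsl2, namely 2.59 (2.14–3.13) in the 3-month control and 0.723 (0.348–1.39) in the 3-month mutant. In Zfp804b/Dab1 cartilage, Adamts1 was not alone in lying in cells with such a UMI. In the 3-month mutant these cells held 928331 of 2783164 UMIs. They held 34 of 49 UMIs of Adamts5, 56 of 124 of Adamts12 and 31 of 72 of Adamts6, but 2 of 12 of Adamts9. In the 3-month control they held 237374 of 620196 UMIs, with 6 of 21 of Adamts6 and 5 of 22 of Adamts9. In the 12–16-month mutant they held 201842 of 747402 UMIs, with 24 of 47 of Adamts6.

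**Figure D3:**
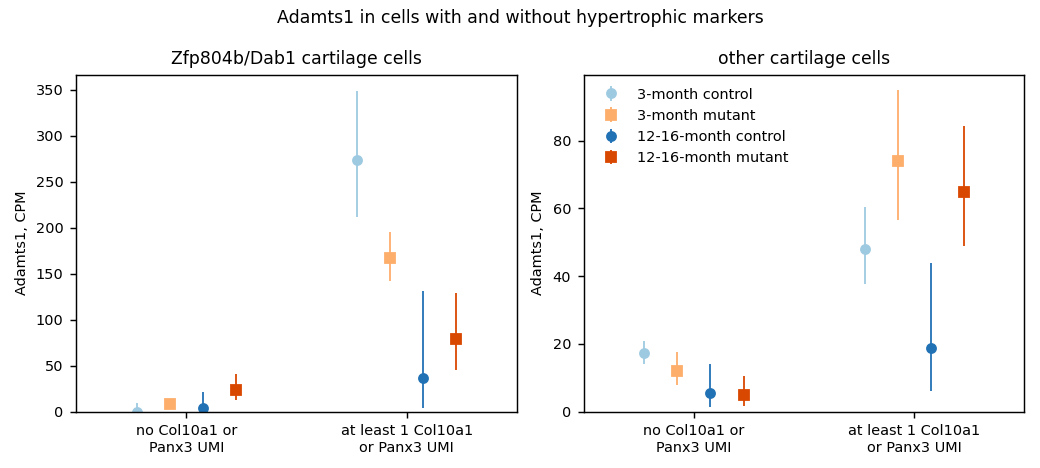
Adamts1 level (vertical axis, CPM with 95% Poisson intervals) in cells without and with a UMI of the hypertrophic markers Col10a1 and Panx3 (horizontal axis), for Zfp804b/Dab1 cartilage (left) and other cartilage (right). The level was higher in cells with such a UMI in every library, from 36.3 to 273.8 CPM on the left, where the 12–16-month control point rests on 2 UMIs.

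Adamts1 is 1 of 5 members with a promoter in the RefSeq table (GRCm38.p6). Shown are the promoters of the hypertrophy-associated Adamts1 and the cartilage-restricted Adamtsl2, and those of Adamts9 and Adamts2. These genes were chosen because the results on cell groups above and below turn on them. Most UMIs of Adamts9 and Adamts2 lay in osteoblast-like cells, a class that also had markers of marrow stroma. Each runs from 250 bases before to 50 bases after the annotated start, and capitals mark the motif TATAAA, searched on both strands.
Adamts1, chr16:85803064-85803363, minus strand: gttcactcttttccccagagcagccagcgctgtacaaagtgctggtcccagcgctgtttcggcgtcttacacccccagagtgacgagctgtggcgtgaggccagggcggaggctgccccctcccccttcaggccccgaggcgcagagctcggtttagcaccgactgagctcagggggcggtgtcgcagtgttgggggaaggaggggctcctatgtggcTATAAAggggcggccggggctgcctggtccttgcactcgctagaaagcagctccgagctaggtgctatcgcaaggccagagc
Adamtsl2, chr2:27079129-27079428, plus strand: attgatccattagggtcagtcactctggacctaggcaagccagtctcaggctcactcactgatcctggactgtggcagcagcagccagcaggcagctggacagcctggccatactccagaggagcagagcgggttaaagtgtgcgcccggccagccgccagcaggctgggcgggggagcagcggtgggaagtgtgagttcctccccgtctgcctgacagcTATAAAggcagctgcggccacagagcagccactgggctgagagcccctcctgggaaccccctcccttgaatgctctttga
Adamts9, chr6:92943485-92943784, minus strand: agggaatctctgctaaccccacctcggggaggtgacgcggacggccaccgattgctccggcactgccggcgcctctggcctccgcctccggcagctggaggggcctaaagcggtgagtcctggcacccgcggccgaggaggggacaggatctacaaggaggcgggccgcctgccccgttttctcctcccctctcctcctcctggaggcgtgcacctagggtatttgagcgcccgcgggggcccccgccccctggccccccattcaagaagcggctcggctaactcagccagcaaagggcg
Adamts2, chr11:50601835-50602134, plus strand: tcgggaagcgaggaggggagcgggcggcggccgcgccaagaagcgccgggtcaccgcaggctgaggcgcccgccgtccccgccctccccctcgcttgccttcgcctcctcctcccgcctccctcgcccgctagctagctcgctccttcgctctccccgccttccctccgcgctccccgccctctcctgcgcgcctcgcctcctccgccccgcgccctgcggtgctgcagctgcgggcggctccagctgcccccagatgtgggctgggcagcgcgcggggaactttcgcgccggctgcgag

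TATAAA was found in Adamts1 and Adamtsl2, starting at bases 219 and 221 of the window, and in 13.6% of the 32851 promoters of the table. The promoters of Adamts9 and Adamts2, which lack these letters, have GC contents of 70.0% and 77.3% against 64.7% and 62.3% for Adamts1 and Adamtsl2, and hold 25 and 41 CpG dinucleotides against 18 and 8. The promoter of Adamts12, a gene also higher in osteoblast-like cells than in other cartilage, lacks TATAAA too. It has a GC content of 62.0% and 7 CpG dinucleotides. The median GC content of all promoters was 52.7%. The letters TGTGGT (bound by RUNX factors), ACAATG (SOX factors) and TGACTCA (AP-1) were in none of the 5 member promoters, and in 16.8%, 12.6% and 5.20% of all promoters.

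Adamts9 (ENSMUSG00000030022, chr6:92772699-92943492, minus strand), which overlaps 3 genes on the opposite strand, had 323, 73, 171 and 264 UMIs. Its level in osteoblast-like cells was 339.7 CPM (299–384), 288 CPM (214–379), 237.7 CPM (201–279) and 258 CPM (223–296). The interval of the 3-month control lay above those of both 12–16-month libraries, while that of the 3-month mutant overlapped all others. The intervals do not cover differences between cells. In the 4 libraries, 5 osteoblast-like cells held 114 of 254, 41 of 50, 83 of 147 and 94 of 198 Adamts9 UMIs. In other cartilage it was 3.80 CPM, 1.96 CPM, 0 CPM and 8.10 CPM, and in Zfp804b/Dab1 cartilage 35.5 CPM, 4.31 CPM, 0 CPM and 13.4 CPM. Osteoblast-like cells exceeded other cartilage 89.5-fold (60.8–136) in the 3-month control, 147-fold (62.9–419) in the 3-month mutant and 31.8-fold (19.4–55.7) in the 12–16-month mutant, and at least 78.7-fold in the 12–16-month control, where other cartilage had 0 UMIs.

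Adamts15 (ENSMUSG00000033453, chr9:30899155-30922452, minus strand) was low, with 17, 26, 6 and 22 UMIs. Mural-like cells held 7, 22, 2 and 16 of them, or 68.1 CPM (27.4–140.4), 108 CPM (67.7–164), 60.9 CPM (7.37–219.8) and 78.0 CPM (44.6–127), with intervals that overlap between all libraries. Osteoblast-like cells had 10.7 CPM, 11.5 CPM, 6.47 CPM and 6.51 CPM, and other cartilage had 0 UMIs of the gene in every library.

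The procollagen proteinase gene Adamts2 (ENSMUSG00000036545, chr11:50602084-50807573, plus strand), which overlaps 3 non-coding genes on the opposite strand, was found in nearly every osteoblast-like cell. Its level there was 329 CPM (289–373), 558 CPM (453–681), 369 CPM (322–419.7) and 467 CPM (420.3–518), and a UMI was found in 97.3%, 93.3%, 100% and 93.7% of the cells. After each cell was thinned to 3000 UMIs, these shares were 62.1%, 71.5%, 62.1% and 73.0%. Among cells with a Ptprc UMI, the gene was found in 0 of 13, 1 of 42, 1 of 2 and 0 of 30. Other cartilage had 6.02 CPM, 0.980 CPM, 2.01 CPM and 2.86 CPM, which made the ratio 54.6 (39.8–76.6) in the 3-month control and 163 (74.4–448) in the 12–16-month mutant. Mural-like cells had 13 UMIs in the 9 cells of the 3-month control and 38 in the 3-month mutant (187 CPM). They had 0 in the 2 cells of the 12–16-month control and 18 in the 12–16-month mutant (87.7 CPM). A UMI was found in 66.7%, 52.9%, 0% and 28% of the mural-like cells. Of the 21 osteoblast-like cells of the 12–16-month control, all 21 had Adamts2, 17 Adamts9, 14 Adamts5 and 10 Adamts12, and 12 had both Adamts9 and Adamts5.

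Adamts6 (ENSMUSG00000046169, chr13:104287835-104496695, plus strand) was the most counted member, with 989, 524, 369 and 610 UMIs. In other cartilage its level was 119 CPM (111–127), 131 CPM (118–144), 325 CPM (290.5–362) and 244 CPM (223–266), so that both 12–16-month libraries lay above both 3-month libraries. In Zfp804b/Dab1 cartilage it was 33.9 CPM, 25.9 CPM, 28.6 CPM and 62.9 CPM, which was 3.52-fold, 5.06-fold, 11.3-fold and 3.87-fold lower. In osteoblast-like cells it was 37.4 CPM, 5.75 CPM, 55.0 CPM and 19.5 CPM, and mural-like cells had 0 UMIs in all 4 libraries. A UMI was found in 57.1%, 54.5%, 66.7% and 53.0% of other cartilage cells, and in 25.2%, 27.2%, 43.9% and 35.5% after thinning to 3000 UMIs. Cells with a Ptprc UMI were not free of the gene. They had it in 0 of 13, 9 of 42, 0 of 2 and 5 of 30 cells, and in 7.80% and 7.50% of the thinned cells of the 3-month and 12–16-month mutant libraries, and 1 cell held 15 of the 33 UMIs at 3 months.

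Adamts12 (ENSMUSG00000047497, chr15:11064790-11349231, plus strand), the longest of the 9 genes with 284442 bases, had 106, 191, 46 and 107 UMIs. Its level in osteoblast-like cells was 42.8 CPM (29.3–60.4), 69.0 CPM (35.7–121), 53.4 CPM (36.7–74.9) and 78.1 CPM (59.6–101), with intervals that overlap between all libraries. Other cartilage had 8.51 CPM, 9.14 CPM, 4.02 CPM and 12.9 CPM, so that the ratio was 5.03 (3.19–7.79), 7.55 (3.5–15.3), 13.3 (4.72–51.5) and 6.07 (3.80–9.95). In Zfp804b/Dab1 cartilage the 3-month mutant library held 124 Adamts12 UMIs among 2783164 UMIs (44.6 CPM, 37.1–53.1). The 3-month control held 2 among 620196, the 12–16-month control 4 among 314262 and the 12–16-month mutant 4 among 747402.

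Adamtsl2 (ENSMUSG00000036040, chr2:27079379-27108981, plus strand) was the member most restricted to 1 group. Other cartilage held 465 of 476, 56 of 56, 51 of 53 and 109 of 113 UMIs, or 60.9 CPM (55.5–66.7), 18.3 CPM (13.8–23.8), 51.3 CPM (38.2–67.5) and 51.9 CPM (42.6–62.7). The 3-month mutant library was low, and the other 3 had overlapping intervals. A UMI was found in 26.1%, 12.8%, 23.1% and 20.5% of these cells, and in 13.0%, 5.43%, 13.7% and 11.1% after thinning, while 0 of 87 cells with a Ptprc UMI had one. The gene was not evenly spread within other cartilage. It was divided by 3 rules for disc markers. These were at least 2 UMIs of Sfrp5, at least 3 UMIs of Smoc2 and Cilp2 together, and at least 2 UMIs of Chrdl2 and Meox2 together. Cells that met only the Sfrp5 rule had 120.9 CPM in the 3-month control (45 cells) and 0 UMIs in the 3-month mutant (16 cells, 156977 UMIs). Cells that met only the rule of Smoc2 and Cilp2 had 16.0 CPM and 9.47 CPM. Cells that met several of these marker rules had 105.6 CPM and 31.0 CPM.

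The genes whose pattern over the 14 sums of group and library with at least 10 cells was most like that of each member were compared with 6589 genes by Pearson's r of log2(CPM + 10), as a description in which all sums of a library share its preparation. They were Zeb2 (r = 0.99), Tmem123 (0.99) and 2610307P16Rik (0.99) for Adamts2, and Hp (0.97), Psmb8 (0.96) and Fbln5 (0.95) for Adamts9. For Adamts6 they were Smoc2 (0.93), Cdon (0.93) and P4ha2 (0.92), and for Adamtsl2 Gm17455 (0.98), Hs3st1 (0.97) and D630045J12Rik (0.97). For Adamts5 they were Gja1 (0.91), Col5a1 (0.90) and Lepr (0.90), and for Adamts1 Pdcd10 (0.89), Sdhd (0.84) and Ppp2ca (0.79). Hp and Lepr are also on the list of marrow stroma markers used for the cell groups.

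The libraries labelled mutant and control were compared first over all passing cells. At 3 months, 7 members had at least 50 UMIs. Of these, Adamts12 was at least 1.5-fold higher in the mutant library, with 26.2 CPM against 11.2 CPM, a ratio of 2.33 (1.83–2.98), while 24.9% of all genes were that much higher. Adamtsl2 with a ratio of 0.152 (0.113–0.201), Adamts9 with 0.292 (0.224–0.378) and Adamts2 with 0.605 (0.493–0.739) were lower, while 10.8% of all genes were. Adamts6 (0.685), Adamts5 (1.39) and Adamts1 (1.13) lay between. The median ratio was 0.685 over the 7 members and 1.12 over the 12552 genes. On the TMM scale of edgeR, log2 ratios at this age moved by -0.19 and Adamts6 joined the lower genes with a ratio of 0.602. At 12–16 months, only Adamts1 of 7 members was past the fold, higher with 34.8 CPM against 13.0 CPM, a ratio of 2.68 (1.78–4.16), while 13% of all genes were higher and 5.33% lower. The median was 1.04 over the members and 1.08 over all genes. The libraries differed in their cells, since osteoblast-like cells made up 5.16% and 3.10% of the 3-month control and mutant cells and 15.6% and 15.0% at 12–16 months, and Zfp804b/Dab1 cartilage 4.18%, 29.3%, 8.15% and 9.03%. With Zfp804b/Dab1 cartilage, other cartilage and osteoblast-like cells given equal weight, the 3-month ratio of Adamts9 was 0.776 and that of Adamts2 was 1.65, the latter in the opposite direction, whereas that of Adamtsl2 was 0.269 and that of Adamts12 was 2.25. The 12–16-month ratio of Adamts1 was 3.28 with this weighting. The part of the mixture in the ratios over all cells was not tested.

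**Figure D4:**
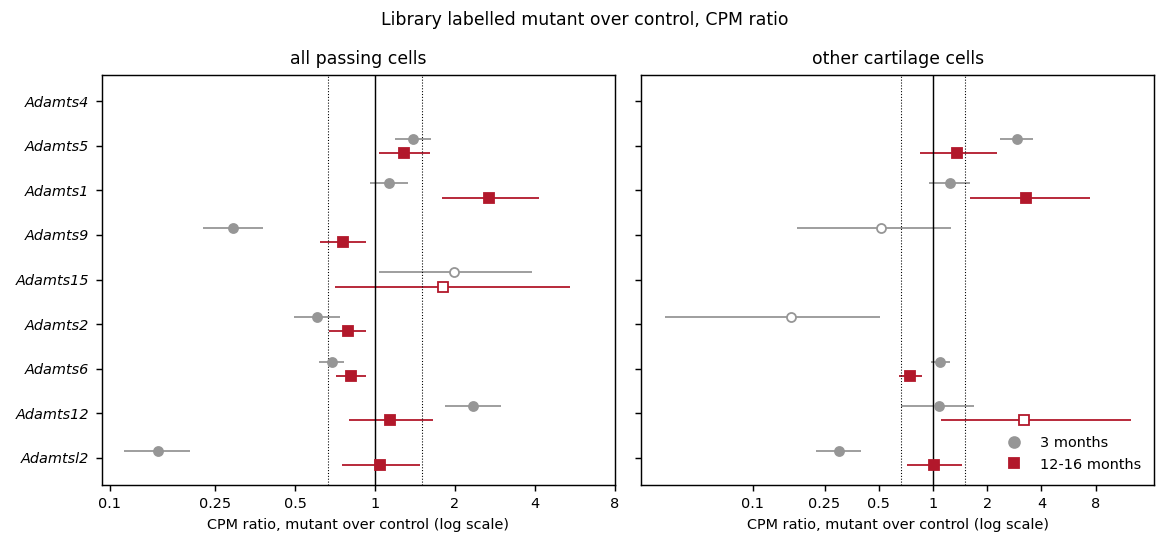
Ratio of CPM in the library labelled mutant over the control library (horizontal axis, log scale) at 3 months (gray circles) and 12–16 months (red squares), in all passing cells (left) and other cartilage (right). Bars are 95% counting intervals, open symbols mark genes under 50 UMIs, genes under 20 UMIs are not drawn, and dotted lines mark 1.5-fold. In other cartilage Adamts5 was higher (2.91) and Adamtsl2 lower (0.301) at 3 months, and Adamts1 higher (3.26) at 12–16 months.

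Within other cartilage, 5 members could be compared at 3 months. Adamts5 was higher in the mutant library with 62.1 CPM against 21.3 CPM, a ratio of 2.91 (2.35–3.61), while 10.4% of all genes were at least 1.5-fold higher. Adamtsl2 was lower with 18.3 CPM against 60.9 CPM, a ratio of 0.301 (0.224–0.397), while 10.8% of all genes were lower. Adamts1 (1.24), Adamts6 (1.10) and Adamts12 (1.07) lay between, and the median was 1.10 over the members and 0.999 over all genes. Other cartilage was itself a mixture that differed between the libraries, since 217 of 532 control and 70 of 235 mutant cells met several of the disc marker rules and 54 and 63 met none. Summed markers of hypertrophic chondrocytes were at 430 CPM and 1117 CPM, and summed endplate markers at 67.1 CPM and 359 CPM, with 0 markers of either list at 0. Adamts5 had a ratio of 3.88 (2.84–5.31) among cells that met only the rule of Smoc2 and Cilp2. The ratio was 3.07 (2.05–4.58) among cells that met several rules and 3.42 (1.64–7.99) among those that met none. Among cells that met only the Sfrp5 rule, 16 mutant cells had 0 Adamts5 UMIs and 45 control cells had 10. These cells held 156977 and 438317 UMIs, so that a lower level was not shown. Adamtsl2 had ratios of 0.591 (0.242–1.26), 0.293 (0.192–0.432) and 0.4 (0.121–1.18) in the first 3 of these subgroups. Among cells that met only the rule of Chrdl2 and Meox2 it had 14 UMIs (75.4 CPM) against 11 UMIs (53.2 CPM). The part of the mixture in the ratios over other cartilage was not tested further. The ratio of Adamts5 was 2.69 without the highest cell of each library. Its share of cells with a UMI was 34.0% against 18.8%. At 12–16 months, 4 members could be compared, and Adamts1 was higher with a ratio of 3.26 (1.61–7.47) on 62 and 9 UMIs, while 8.75% of all genes were higher and 9.28% lower. Without the highest cell of each library 32 and 5 UMIs remained, with a ratio of 2.97, which is under the minimum of 50 UMIs. Summed hypertrophic markers moved the same way, at 201 CPM in the control and 1620.2 CPM in the mutant library, and 18 of 78 and 68 of 219 cells had a UMI of Col10a1 or Panx3. In those cells Adamts1 was at 18.8 CPM and 64.9 CPM, and in the others at 5.50 CPM and 4.86 CPM. Adamts5 (1.36), Adamts6 (0.749) and Adamtsl2 (1.01) lay between. Whether the ratios differ between the ages was not tested. The median was 1.19 over the 4 members and 0.986 over all genes.

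In Zfp804b/Dab1 cartilage at 3 months, 4 members could be compared. Adamts12 was higher in the mutant library with 44.6 CPM against 3.22 CPM, a ratio of 13.8 (3.74–115) on 124 and 2 UMIs, and Adamts5 was higher with a ratio of 10.9 (1.87–440) on 49 and 1 UMIs, while 18.5% of all genes were higher. Adamts1 was lower with 61.1 CPM against 104.8 CPM, a ratio of 0.583 (0.435–0.788), while 14.3% were lower. The median was 5.84 over the 4 members and 1.01 over all genes. Adamts12 UMIs lay in 27.5% of the 142 mutant cells and 6.67% of the 30 control cells, at median depths of 17605.5 and 17649 UMIs. Without the highest cell of each library, Adamts1 had a ratio of 0.712, Adamts12 had a ratio of 24.7, and Adamts5 had 0 UMIs left in the control. Cells with a UMI of Col10a1 or Panx3 were 7 of 30 in the control and 38 of 142 in the mutant library, and the summed level of the 4 hypertrophic markers in Zfp804b/Dab1 cartilage was 4079 CPM and 1508 CPM, lower in the mutant library as was Adamts1. Their part in the result was not tested. At 12–16 months, with 11 control and 38 mutant cells, only Adamts6 had enough UMIs. It was higher in the mutant library with a ratio of 2.20 on 47 and 9 UMIs, and 1 control cell held 5 of the 9. Of all genes, 15.3% were higher and 10.4% lower.

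In osteoblast-like cells, 4 members could be compared at each age. The make-up of this class differed between the labels. Summed markers of osteoblasts were at 90121 CPM, 45686.5 CPM, 159526 CPM and 49945 CPM, and those of marrow stroma at 4917 CPM, 12302 CPM, 4637 CPM and 11746 CPM, with 0 markers of either list at 0. Cells that also had at least 10 UMIs of Cxcl12, the rule for marrow stroma, were 17 of 37, 12 of 15, 9 of 21 and 47 of 63. At 3 months Adamts2 was higher in the mutant library with 558 CPM against 329 CPM, a ratio of 1.70 (1.33–2.15). Of all genes, 27.1% were higher. Adamts1 was lower with a ratio of 0.406 (0.127–1.01) on 5 and 53 UMIs, while 20.2% of all genes were lower. In the control library 1 cell held 26 of the 53. Without the highest cell of each library 2 and 27 UMIs remained, under the minimum of UMIs. At 12–16 months Adamts1 lay the other way, also under this minimum. The mutant library had 27 UMIs of the gene among 768083 and the control 8 among 618469. Among cells that met the stroma rule Adamts2 was at 671 CPM against 437 CPM, a ratio of 1.54 (1.15–2.05), and among the others at 157 CPM on 6 UMIs in 3 mutant cells against 276 CPM in 20 control cells. The TMM scale moved log2 ratios in these cells by -0.33, which brought Adamts2 to 1.35, under the fold, and Adamts5 from 0.702 to 0.557, past it. The median was 0.775 over the 4 members and 1.08 over all genes. Adamts9 had a ratio of 0.847 (0.612–1.15), against 0.292 over all cells. At 12–16 months 0 of 4 members were past the fold, with ratios of 1.38 for Adamts5, 1.08 for Adamts9, 1.27 for Adamts2 and 1.46 for Adamts12, while 34.8% of all genes were higher and 5.53% lower. The median was 1.33 over the members and 1.30 over all genes, and the TMM scale moved log2 ratios by -0.36. Without the highest cell of each library Adamts12 had a ratio of 1.74, past the fold. In the Cdh5 cells without Ptprc, Adamts5 was at 1040 CPM in 7 mutant cells and 2461 CPM in 3 control cells at 3 months, and 1 of the control cells held 30 of the 56 UMIs.

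The ages were compared under each label. In the control libraries, all 7 members with enough UMIs differed by at least 1.5-fold over all cells. Adamts2 (ratio of 12–16 months to 3 months 3.52, 2.96–4.17), Adamts9 (2.32, 1.91–2.80), Adamts12 (1.90, 1.31–2.71), Adamts6 (1.63, 1.44–1.84) and Adamts5 (1.60, 1.28–1.98) were higher, while 16.6% of all genes were, and Adamts1 (0.372, 0.244–0.548) and Adamtsl2 (0.487, 0.360–0.648) were lower, while 10.2% were. In the mutant libraries 4 of 7 were higher, Adamts9 (5.99, 4.61–7.88), Adamts2 (4.57, 3.77–5.57), Adamtsl2 (3.34, 2.41–4.69) and Adamts6 (1.93, 1.71–2.17), while 12.4% of all genes were higher, and 0 were lower, while 9.84% were. The medians were 1.63 and 1.93 over the members and 1.05 and 1.01 over all genes. The older libraries held a larger share of osteoblast-like cells. The 3 groups were also weighted equally, a setting added after the values were seen. In the control and mutant libraries, Adamts9 then had ratios of 0.627 and 0.95, Adamts2 of 1.09 and 0.841 and Adamts6 of 2.15 and 2.00. This weighting rests on 15 to 63 osteoblast-like cells per library. The part of the mixture in the age ratios over all cells was not tested. On the TMM scale, which moved log2 ratios of the control libraries by -0.18, Adamts6 (1.44) and Adamts5 (1.41) fell under the fold, leaving 3 members higher and 2 lower. Adamts6 was also under the fold without the highest cell of each library (1.43).

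**Figure D5:**
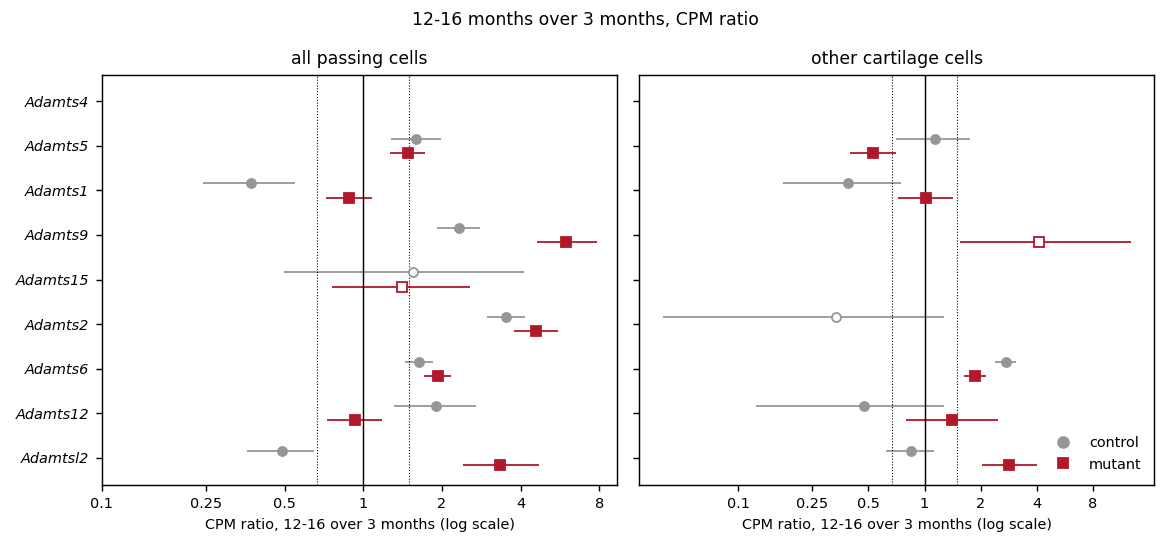
Ratio of CPM at 12–16 months over 3 months (horizontal axis, log scale) in the control (gray circles) and mutant libraries (red squares), in all passing cells (left) and other cartilage (right), with 95% counting intervals. Open symbols mark genes under 50 UMIs, genes under 20 UMIs are not drawn, and dotted lines mark 1.5-fold. In other cartilage Adamts6 was higher at 12–16 months under both labels (2.73 and 1.86).

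Within other cartilage, Adamts6 was higher at 12–16 months under both labels, with a ratio of 2.73 (2.40–3.10) in control and 1.86 (1.63–2.12) in mutant cells. In the 12–16-month control 5 of the 78 cells held 51.4% of its UMIs, and the ratio was 2.42 without the highest cell of each library. In the control cells Adamts1 (0.387, 0.174–0.75) and Adamts12 (0.473, 0.125–1.27, on 4 and 65 UMIs) were lower, while 12.3% of all genes were higher and 11.1% lower, and the median was 0.843 over 5 members and 1.02 over all genes. In the mutant cells Adamtsl2 was also higher (2.84, 2.04–3.99) and Adamts5 was lower (0.530, 0.396–0.701), while 8.65% of all genes were higher and 9.34% lower, and the median was 1.41 over 5 members and 0.983 over all genes. Without the highest cell of each library Adamts1 had a ratio of 0.602, past the fold, against 1.02 with all cells. Adamtsl2 and Adamts5 were the genes for which the 3-month mutant library stood apart from the other 3. Other cartilage was a mixture that differed between the ages too. Summed fibroblast markers (Dcn, Dpt and Gsn) were at 11261 CPM, 8000 CPM, 16756.5 CPM and 17166 CPM in the 4 libraries. Summed hypertrophic markers were at 430 CPM, 1117 CPM, 201 CPM and 1620 CPM. The part of the mixture in the age ratios was not tested.

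The other 16 ADAMTS, ADAMTSL and papilin genes in the matrices were mostly low. Only 7 of them, Adamts3, Adamts10, Adamts14, Adamts17, Adamtsl1, Adamtsl3 and Adamtsl4, had at least 100 UMIs over the 4 libraries, and the highest total of the other 9 was 76. Adamtsl1 lay in mural-like cells, where it had 16, 71, 7 and 32 UMIs, or 156 CPM, 349 CPM, 213 CPM and 156 CPM, against at most 1.63 CPM in other cartilage. Adamts17 was lower in the mutant library at both ages over all cells, with 6.17 CPM against 20.3 CPM at 3 months (ratio 0.305, 0.215–0.424) and 5.91 CPM against 12.5 CPM at 12–16 months (0.472, 0.264–0.840). At 3 months, 3 of 7 relatives were lower (also Adamtsl3 and Adamtsl4) and Adamtsl1 was higher, while 10.8% and 24.9% of all genes were. At 12–16 months only Adamts17 of 5 was past the fold, while 5.33% of all genes were lower and 13% higher. In other cartilage Adamts17 was at 20.3 CPM, 7.84 CPM, 11.1 CPM and 3.81 CPM, with 11 and 8 UMIs at 12–16 months. Other cartilage made up 74.2%, 48.6%, 57.8% and 52.0% of the cells. Adamts10 was at 68.2 CPM, 115 CPM, 84.1 CPM and 120 CPM in osteoblast-like cells and between 15.4 and 20.9 CPM in other cartilage.

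Substrates, inhibitors and activators of the family were taken as a list of 27 genes. Acan, the substrate of the aggrecanases, was at 3586 CPM, 4604.5 CPM, 3807 CPM and 4169 CPM in other cartilage and at most 6.47 CPM in osteoblast-like cells, whose definition limits it. Over all cells at 3 months, 21 of the 27 genes could be compared, of which 2 were at least 1.5-fold higher and 6 lower in the mutant library, while 24.9% and 10.8% of all genes were. At 12–16 months 22 could be compared, with 3 higher and 4 lower, while 13% and 5.33% of all genes were. In other cartilage 2 of 20 genes were higher and 4 lower at 3 months, while 10.4% and 10.8% of all genes were, and 4 of 20 were higher and 3 lower at 12–16 months, while 8.75% and 9.28% of all genes were. Among the tissue inhibitors of metalloproteinases, Timp1 was at 222 CPM, 32.3 CPM, 335 CPM and 177 CPM in other cartilage, with ratios of mutant to control of 0.145 (0.117–0.178) and 0.528 (0.454–0.614). Timp4 was at 129 CPM, 324 CPM, 53.3 CPM and 114 CPM, with ratios of 2.51 (2.30–2.75) and 2.14 (1.58–2.93). Timp3, the main inhibitor of the aggrecanases, was at 677 CPM, 908 CPM, 1373 CPM and 1720.3 CPM and within 1.5-fold between the labels at both ages. Versican (Vcan), a substrate of Adamts1 and Adamts9, was at 3051 CPM, 1789 CPM, 2097 CPM and 2112 CPM, so that it was lower in the mutant library at 3 months (0.586, 0.569–0.604). Runx2, a transcription factor that can induce aggrecanases, was at 59.0 CPM, 259 CPM, 76.5 CPM and 290.2 CPM, with ratios of 4.39 (3.90–4.94) and 3.80 (2.99–4.88). Runx2 is also 1 of the 3 endplate markers, whose sum in the same cells was 67.1 CPM, 359 CPM, 82.5 CPM and 392 CPM. The part of the mixture of other cartilage in the ratios of these genes was not tested. Il1b, Tnf and Il6, cytokines that induce aggrecanases, had between 0 and 57 UMIs per library over all cells. Ltbp1, a partner of Adamtsl2, was at 132 CPM, 259 CPM, 118 CPM and 411 CPM in osteoblast-like cells, where Adamtsl2 had 3, 0, 0 and 0 UMIs.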

How the data were processed

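tdTom+ cells were profiled with 10x Genomics 3′ chemistry in 4 libraries. The values are whole UMI counts for each gene in each called barcode. The authors obtained these counts from Cell Ranger 8.0.0 (version per the submitters' processing notes) with mm10 and deposited them without normalization. The correction for free RNA made in the study was not applied here.

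Barcodes had to exceed 750 UMIs and 500 detected genes, with mitochondrial genes under 7% of UMIs. Counts were summed per library and cell group in Python 3.11.15 (pandas 2.3.3, scipy 1.17.1, numpy 2.4.6) and divided by the total of the same cells. Intervals were exact Poisson for levels, conditional binomial for ratios and Clopper-Pearson for shares, at 95%. A gene counted as higher or lower past 1.5-fold with at least 50 UMIs over both sums. A count of 0 was set to 3 counts for a bound. Doublets were called with Scrublet in scanpy 1.11.5 at an expected rate of 6%, which marked 2, 4, 9 and 4 cells, and were kept. TMM factors came from edgeR 4.0.16 in R 4.3.3 and were only an alternative scale. Ratios were checked on simulated counts.

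The members, lists and cell definitions were chosen with earlier results of these data known. The named genes are the 9 members, their relatives with at least 100 UMIs, a list of 27 substrates, inhibitors and inducers, and for members with at least 500 UMIs the 3 genes of most similar pattern. Gene coordinates came from the GRCm38 annotation, matched by identifier for 9 members. Of the promoters, 5 members had an entry and 4 did not. How counting treated strand is not given in the sources used here, so genes that overlap others on the opposite strand are uncertain.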

Additional observations from a re-analysis of the deposited data

Results flagged for a closer look

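2 genes had ratios on opposite sides of 1 in 2 comparisons of the same kind, with counting intervals that exclude 1. These differences were not tested, since each rests on 4 libraries. In Zfp804b/Dab1 cartilage, Adamts1 was lower in the mutant library at 3 months (ratio 0.583, 0.435–0.788) and higher at 12–16 months (4.06, 1.26–20.9), the latter on 29 UMIs in 38 mutant cells and 3 UMIs in 11 control cells. These are under the minimum of 50 UMIs, and 1 control cell held 2 of the 3. The summed level of 4 markers of hypertrophic chondrocytes in the same cells was 4079 CPM in control and 1508 CPM in mutant at 3 months, and 751 CPM and 2158 CPM at 12–16 months, so that it changed in the same directions, with 1 of the 4 markers at 0 in the 12–16-month control. The part of these cells in the result was not tested. Over all cells, Adamtsl2 was lower at 12–16 than at 3 months under the control label (0.487, 0.360–0.648) and higher under the mutant label (3.34, 2.41–4.69). In other cartilage, where nearly all of its UMIs lie, the corresponding ratios of Adamtsl2 were 0.843 (0.619–1.13) and 2.84 (2.04–3.99).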

How the results depend on the processing

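No paired analysis was possible because each condition has 1 library, and no library could be left out. Of 96 recomputed counts of members past the fold, 77 stayed within 1.5 times the reported count and 19 did not. These counts ignore which members were past the fold and in which direction. On the TMM scale at 3 months, for example, Adamts5 as lower took the place of Adamts2 as higher in osteoblast-like cells. Of 327 recomputed ratios of single genes, 281 stayed inside the counting interval and 41 left it. These include any crossing of 1 by a gene whose reported ratio was within 1.5-fold. The remaining 5 belonged to genes past the fold and changed direction. The latter were log2 ratios of Adamts2 between mutant and control at 3 months over all cells (0.22 with cells weighted equally and 0.72 with the 3 groups weighted equally), and, with the 3 groups weighted equally, of age for Adamts9 (-0.67 in control and -0.074 in mutant libraries) and for Adamts2 (-0.25 in mutant libraries). The cause was not tested. Weighting the 3 groups equally in the age comparisons, and leaving out the highest cell of each library in all comparisons, were added after seeing the data. The counts of members past the fold changed as follows at 3 months. In Zfp804b/Dab1 cartilage, 3 members became 1 without the highest cells and 1 with cells grouped after thinning. In other cartilage, 2 became 4 with a minimum of 20 UMIs and 4 with grouping after thinning. In osteoblast-like cells, 2 became 1 with a fold of 2, 4 with a minimum of 20 UMIs, 1 with a minimum of 100 UMIs and 4 with cells of several groups kept. At 12–16 months, 1 over all cells became 3 with cells weighted equally and 2 with a minimum of 20 UMIs. In other cartilage, 1 became 0 without the highest cells, 2 with a minimum of 20 UMIs and 0 with a minimum of 100 UMIs, and in osteoblast-like cells 0 became 1 without the highest cells and 2 with a minimum of 20 UMIs. For age over all cells, 7 in the control libraries became 4 with a fold of 2 and 3 with the groups weighted equally, and 4 in the mutant libraries became 2 with the groups weighted equally. In other cartilage of the mutant libraries, 3 became 1 with a fold of 2. The 5 members that differed between osteoblast-like and other cartilage cells were called the same way under 4 alternatives. For Adamtsl2 this says little, since osteoblast-like cells of the 3-month mutant and both 12–16-month libraries had 0 UMIs. As 0 counts as lower, the TMM scale and equal weighting of cells could not change its call in those libraries. Of the 3 members between both cartilage groups, Adamtsl2 was lost with grouping after thinning. Depth limits Adamts4, Adamts15 and all groups of under 10 cells.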
